A study of Mus musculus with 6 samples.

Results

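The 8 genes described here are PITX1, LHX3, LHX4, HESX1, SOX2, SOX9, ISL1 and INSM1, which encode transcription factors of pituitary lineages and of pituitary progenitor cells. They were chosen by name, with earlier results of these data known, and all 8 stand in the deposited table of 16736 rows. The measurements are read counts from RNA-seq of polyadenylated RNA of whole pituitary glands of male mice, 3 libraries labelled RD and 3 labelled HFD. All glands were taken 4 h into feeding that followed a 16 h fast, so fasting and refeeding are shared by both groups and the labelled difference is the diet. The labels do not write out the abbreviations of the diets, and they give no strain, age or length of feeding. By its title, the series is about obesity and liver disease. Nothing in the labels says that the libraries of a group came from separate animals, so p-values measure only the spread between these libraries, which may be technical.

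The pituitary forms from oral ectoderm, and its early pouch is specified by the homeodomain factors PITX1, LHX3 and LHX4. PITX1 acts together with cell type factors on many hormone promoters and remains expressed in the adult gland. LHX3 and LHX4 are paralogous LIM-homeodomain proteins, whose LIM domains bind the cofactor LDB1. ISL1 belongs to the same class and is known from thyrotrophs and gonadotrophs. HESX1 is an early repressor that recruits TLE corepressors and is switched off as the gland differentiates. INSM1 is a zinc finger factor of neuroendocrine cells that works with the LSD1 and RCOR complex and is needed for the endocrine differentiation of pituitary cells. SOX2 and SOX9 mark the progenitor cells that persist in the adult gland, and they are also found in supporting cells, including the pituicytes (glial cells) of the posterior lobe.

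Upstream sequences are shown for LHX3, which was called higher in HFD, for its paralog LHX4 and for the progenitor factor SOX2, neither of which was called. RefSeq windows of GRCm38.p6 were at hand for 5 of the 8 genes (LHX3, LHX4, HESX1, SOX2 and ISL1). Each run covers the 210 bases from 250 to 41 bases before an annotated start, 5′ to 3′ on the gene's strand, with capitals for any match to 5 motifs searched on both strands. The motifs were the GC box GGGCGG, the CCAAT box CCAAT, the PITX motif TAATCC, the LIM-homeodomain motif TAATTA and the SOX motif ACAANG. Lhx3 has a distal and a proximal start on the minus strand of chromosome 2, at chr2:26208290-26208499 and chr2:26206616-26206825 for the windows shown. The Lhx4 window is chr1:155742068-155742277, minus strand, and the Sox2 window chr3:34649745-34649954, plus strand. The Lhx4 window and the proximal Lhx3 window lie within the GENCODE M21 models of these genes, so the RefSeq starts used there are internal to them.
Lhx3 distal: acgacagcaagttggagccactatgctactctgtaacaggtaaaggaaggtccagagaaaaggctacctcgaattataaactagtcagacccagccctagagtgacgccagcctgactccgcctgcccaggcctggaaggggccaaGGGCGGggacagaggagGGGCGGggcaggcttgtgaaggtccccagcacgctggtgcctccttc
Lhx3 proximal: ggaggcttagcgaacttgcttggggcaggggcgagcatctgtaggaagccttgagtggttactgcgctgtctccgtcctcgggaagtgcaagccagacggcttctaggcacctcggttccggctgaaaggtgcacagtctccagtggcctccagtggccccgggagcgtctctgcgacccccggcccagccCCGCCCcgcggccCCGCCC
Lhx4: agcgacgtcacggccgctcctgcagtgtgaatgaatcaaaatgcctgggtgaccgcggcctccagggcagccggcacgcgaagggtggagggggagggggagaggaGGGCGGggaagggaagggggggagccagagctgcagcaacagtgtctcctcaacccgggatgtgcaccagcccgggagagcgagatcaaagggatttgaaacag
Sox2: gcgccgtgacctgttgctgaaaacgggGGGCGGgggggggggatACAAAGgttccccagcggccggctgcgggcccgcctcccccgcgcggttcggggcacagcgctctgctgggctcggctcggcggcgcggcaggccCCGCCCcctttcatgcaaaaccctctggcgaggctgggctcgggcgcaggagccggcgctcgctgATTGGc
Both Lhx3 windows held 2 GC boxes and the Lhx4 window held 1, a motif present in 26.7% of 32851 such windows. The Sox2 window held 2 GC boxes, 1 CCAAT box and 1 SOX motif, the last 2 of which stood in 29.9% and 32.2% of all windows. The TAATCC motif stood in the Isl1 window (1 match) and in none of the other windows of these genes, against 5.43% of all windows, and TAATTA in none of them, against 4.37%. These matches describe the letters only. Gene counts do not separate transcripts from the 2 Lhx3 starts, and GENCODE M21 lists 2 protein-coding transcripts of this gene.

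LHX3 and INSM1 were higher in HFD than in RD pituitaries, by 1.24-fold and 1.26-fold, and no other of the 8 genes passed the threshold. PITX1, ISL1 and LHX4 had higher means in HFD without passing, and the means of SOX2 and SOX9 differed little between the groups. HESX1 was at the limit of detection in both groups. Of the 7 genes that passed the filter on low counts, 2 were called higher and 0 lower by edgeR's quasi-likelihood test, at an adjusted p below 0.05 (Benjamini-Hochberg over all 13873 tested genes). Over all tested genes 10.5% were called, 5.87% higher and 4.61% lower. The median log2 change, written as log2(HFD/RD), was 0.19 over the 7 genes and -0.0023 over all genes. RD replicate 2 was the lowest RD library for 5 of the 7 genes, LHX3 and INSM1 among them. Its median deviation from the RD mean was -0.119 on the log2 scale over the 7 genes, against -0.00605 over all genes. RD replicate 1 was the highest RD library for 5 of the 7, with a median deviation of 0.143. Both calls were lost in most fits with a library left out, as given below for each gene, and no member was called at an adjusted p below 0.01. In simulations with gene-specific variability the share of false calls exceeded the nominal rate. Those simulations changed far fewer genes than were called in the data, so the size of that excess does not carry over. Calls this close to the threshold may be less secure than the threshold states.

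**Figure D1:**
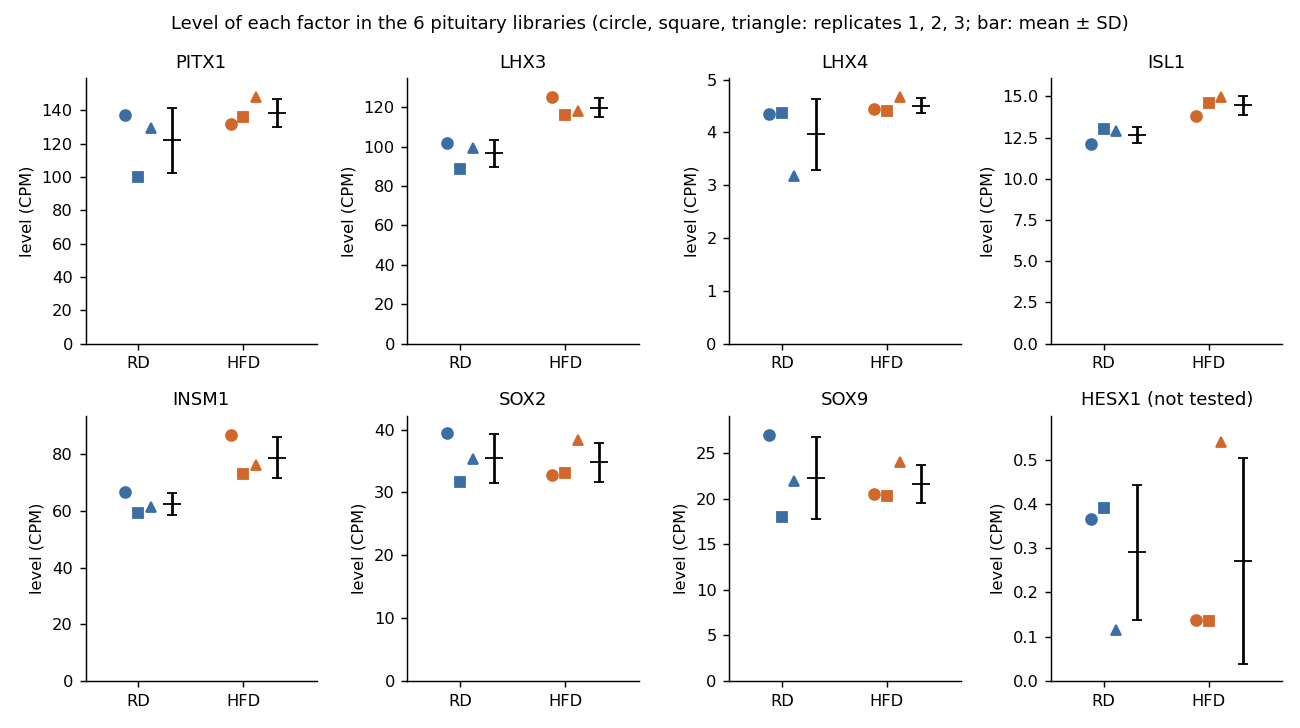
Level of each of the 8 genes in CPM (counts scaled to a common, TMM-adjusted library total; linear axis from 0) in 3 RD and 3 HFD libraries, with mean ± SD. The HFD libraries lie above all RD libraries for LHX3, INSM1, ISL1 and LHX4, and the groups overlap for PITX1, SOX2, SOX9 and HESX1.

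LHX3 (ENSMUSG00000026934.15; chromosome 2 of mm10, 26200212 to 26208289, minus strand) stood at 101.7, 88.8 and 99.3 CPM in RD replicates 1, 2 and 3 and at 125.2, 116.1 and 118.2 CPM in HFD replicates 1, 2 and 3. All 3 HFD libraries lay above all RD libraries. The mean rose from 96.6 ± 6.85 to 119.8 ± 4.80 CPM (SD, n = 3 per group), and the log2 change was 0.31 ± 0.08 (SE), with a 95% interval from 0.14 to 0.48 and an edgeR adjusted p of 0.030. The call was kept without RD replicate 1 or RD replicate 3. It was lost without RD replicate 2 (log2 change 0.25, edgeR adjusted p = 0.103), HFD replicate 1 (0.28, 0.101), HFD replicate 2 (0.33, 0.0867) or HFD replicate 3 (0.32, 0.104). GENCODE M21 places a gene model on the other strand over LHX3, and no source used here says whether counting used strand.

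LHX4 (ENSMUSG00000026468.14; chromosome 1, 155698031 to 155751684, minus strand), the paralog of LHX3, was a scarce transcript. Its raw counts were 71, 67 and 55 in RD and 64, 65 and 69 in HFD, or 4.34, 4.36 and 3.18 CPM against 4.44, 4.42 and 4.66 CPM. RD replicate 3 lay apart from the other libraries, and although the groups did not overlap, RD replicates 1 and 2 came within a few counts of the HFD libraries. The log2 change was 0.19 ± 0.22 (edgeR adjusted p = 0.626), and the 95% interval from -0.29 to 0.67 includes the change measured for LHX3. Without RD replicate 3 the log2 change was 0.044. The ratio of LHX3 to LHX4 counts, which does not depend on scaling between libraries, ranged from 20.4 to 31.2 in RD and from 25.3 to 28.2 in HFD. That ratio did not separate the groups (exact permutation test, two-sided p = 0.6, n = 3 each).

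ISL1 (ENSMUSG00000042258.13; chromosome 13, 116298281 to 116309689, minus strand) was measured at 12.11, 13.02 and 12.89 CPM in RD and at 13.8, 14.6 and 14.9 CPM in HFD. The HFD libraries again lay above the RD libraries, with the narrowest spread of the RD libraries among the 8 genes, 3.86% of the mean. The log2 change of 0.19 ± 0.12 was not called (edgeR adjusted p = 0.348, 95% interval from -0.075 to 0.45). With LHX3, INSM1 and LHX4, ISL1 made 4 of 7 tested genes whose HFD libraries all lay above the RD libraries, a pattern found in 16.9% of all tested genes, with non-overlap in either direction in 32.5%. Of these 4, LHX3 and INSM1 passed the test.

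PITX1 (ENSMUSG00000021506.7; chromosome 13, 55825051 to 55836192, minus strand) had the highest mean level per length of the 8 genes. It stood at 137.0, 99.7 and 129.4 CPM in RD and 131.6, 135.8 and 147.8 CPM in HFD. RD replicate 2 was low, and the other RD libraries fell within or next to the HFD range. The mean went from 122.0 ± 19.7 to 138.4 ± 8.37 CPM (SD, n = 3 per group), and the log2 change was 0.18 ± 0.11, which was not called (edgeR adjusted p = 0.336, 95% interval from -0.066 to 0.43). Without RD replicate 2 the log2 change was 0.050. GENCODE M21 lists 2 further gene models over PITX1, 1 of them on the same strand, so some reads could belong to them.

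INSM1 (ENSMUSG00000068154.5; chromosome 2, 146221921 to 146225020, plus strand) was measured at 66.8, 59.2 and 61.4 CPM in RD and at 86.9, 73.2 and 76.1 CPM in HFD. Each HFD library exceeded each RD library, and HFD replicate 1 was the highest. The mean rose from 62.5 ± 3.89 to 78.7 ± 7.22 CPM (SD, n = 3 per group), and the log2 change was 0.33 ± 0.09 with a 95% interval from 0.13 to 0.53 and an edgeR adjusted p of 0.0437. The call was kept without RD replicate 1 (edgeR adjusted p = 0.0457). It was lost without RD replicate 2 (log2 change 0.29, edgeR adjusted p = 0.126), RD replicate 3 (0.32, 0.0567), HFD replicate 1 (0.26, 0.141), HFD replicate 2 (0.38, 0.0800) or HFD replicate 3 (0.36, 0.117), and also with each library's trend on GC content removed (0.31, 0.0528). The INSM1 transcript has a GC content of 62.0% and the longest LHX3 transcript 60.3%. LHX3 kept its call with the GC content trend removed (0.28, edgeR adjusted p = 0.0338). The cause of the loss for INSM1 was not tested.

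SOX2 (ENSMUSG00000074637.7; chromosome 3, 34650405 to 34652461, plus strand) read 39.4, 31.6 and 35.3 CPM in RD against 32.8, 33.1 and 38.4 CPM in HFD. The HFD values fell inside the RD range. The log2 change was -0.027 ± 0.11 (edgeR adjusted p = 0.906), with a 95% interval from -0.27 to 0.22. The estimates for LHX3 and INSM1 lie outside that interval, but their own intervals, from 0.14 to 0.48 and from 0.13 to 0.53, overlap it. SOX2 lies within the long non-coding gene Sox2ot on the same strand, which the table lists as SOX2-OT at 3.75 to 8.08 CPM.

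SOX9 (ENSMUSG00000000567.5; chromosome 11, 112782224 to 112787760, plus strand) read 27.0, 18.0 and 21.9 CPM in RD against 20.5, 20.3 and 24.1 CPM in HFD. RD replicate 1 held the highest and RD replicate 2 the lowest value of all 6 libraries. The log2 change was -0.043 ± 0.15 (edgeR adjusted p = 0.891), with a 95% interval from -0.38 to 0.30. For both SOX2 and SOX9 the sign depended on the libraries used, with log2 changes from -0.11 to 0.048 and from -0.18 to 0.11 over the fits with a library left out. The SOX2 to SOX9 ratio of counts was 1.46, 1.76 and 1.61 in RD and 1.595, 1.632 and 1.596 in HFD.

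HESX1 (ENSMUSG00000040726.10; chromosome 14, 26994416 to 27002329, plus strand) had 6, 6 and 2 counts in RD and 2, 2 and 8 counts in HFD. These counts lie around 3, the number that a count of 0 still allows, and the gene did not pass the filter. Without a filter its log2 change was -0.080 (edgeR adjusted p = 0.969), so a difference was not detectable at this depth.

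**Figure D2:**
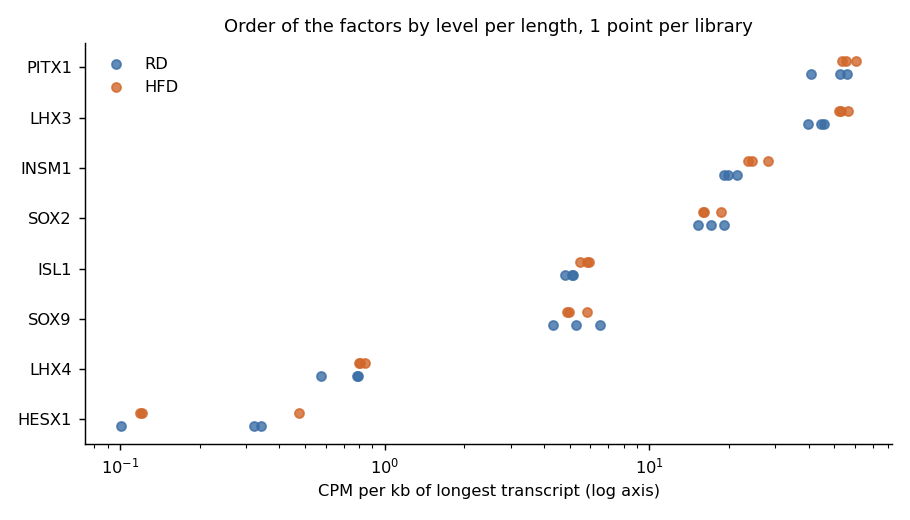
Level of the 8 genes per kb of their longest GENCODE M21 transcript (CPM per kb, log axis), 1 point for each of 3 RD and 3 HFD libraries. PITX1 and LHX3 lie highest, between 39.9 and 60.3 CPM per kb, and LHX4 and HESX1 lie below 1 CPM per kb.

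Between genes, levels are given per kb of transcript. PITX1 had 53.1 ± 6.62 CPM per kb (SD over 6 libraries) and LHX3 48.7 ± 6.20, and these neighbours did not differ beyond their spread. INSM1 followed with 22.8 ± 3.32 and SOX2 with 17.1 ± 1.56 CPM per kb, and their ranges met at 19.1 to 19.2. ISL1 (5.39 ± 0.43) and SOX9 (5.31 ± 0.77) were indistinguishable. LHX4 followed at 0.768 ± 0.096 and HESX1 at 0.247 ± 0.155 CPM per kb. Among 13411 tested genes with a known length, PITX1 stood at the percentile 94.5, LHX3 at 93.5 and LHX4 at 7.51. The paralogs LHX3 and LHX4 thus lay near opposite ends of the range of these tested genes. Genes that did not pass the filter on low counts were not ranked.

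**Figure D3:**
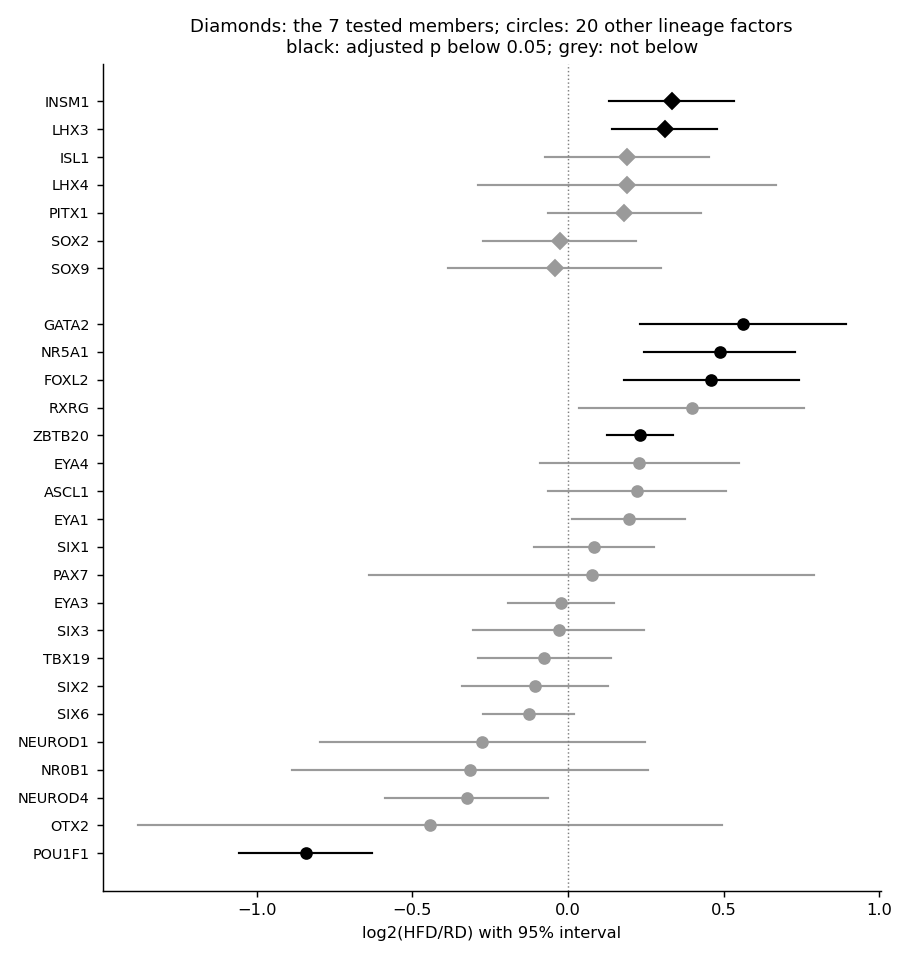
Differences as log2(HFD/RD) with 95% intervals from the fit over all genes, for the 7 tested members (diamonds) and 20 further lineage factors (circles), black where the adjusted p was below 0.05. LHX3 and INSM1 stand at 0.31 and 0.33, SOX2 and SOX9 near 0, and POU1F1 at -0.84.

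LHX3 and INSM1 had the most similar profiles of any pair among the 7 tested genes. Their log2 levels, each centred on its own mean, differed by at most 0.091 in any of the 6 libraries, and 26 of 12802 genes compared lay closer to LHX3. SOX2 and SOX9 were the next closest pair, with a largest difference of 0.136 and 188 genes closer to SOX2. The genes most like LHX3 were RHOB, a small GTPase (largest difference 0.048), PLXNA4, a semaphorin receptor (0.062), and INTS7, a subunit of the Integrator complex (0.063). Those most like INSM1 were DPYSL3, a cytoskeletal regulator of neurites (0.044), SUSD2, a membrane protein (0.049), and CWC25, a splicing factor (0.051). These are descriptions over 6 libraries in 2 groups, and any gene that differs by diet to a similar extent shares part of the profile.

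The ratio of LHX3 to SOX2 counts was 2.58, 2.81 and 2.82 in RD and 3.82, 3.50 and 3.08 in HFD. That of INSM1 to SOX2 was 1.69, 1.87 and 1.74 in RD and 2.65, 2.21 and 1.98 in HFD. In both, the HFD libraries lay above all RD libraries, with mean ratios 1.26-fold and 1.28-fold higher. With 3 libraries against 3 an exact permutation test cannot go below 0.1, the two-sided p of both ratios (0.35 after Benjamini-Hochberg adjustment over 7 ratios). The ratio of INSM1 to LHX3 overlapped between the groups, at 0.656, 0.666 and 0.619 in RD and 0.694, 0.630 and 0.644 in HFD (exact permutation p = 0.9). The ratios of LHX3 and INSM1 to PITX1 overlapped between the groups (exact permutation p = 0.3 and 0.5).

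**Figure D4:**
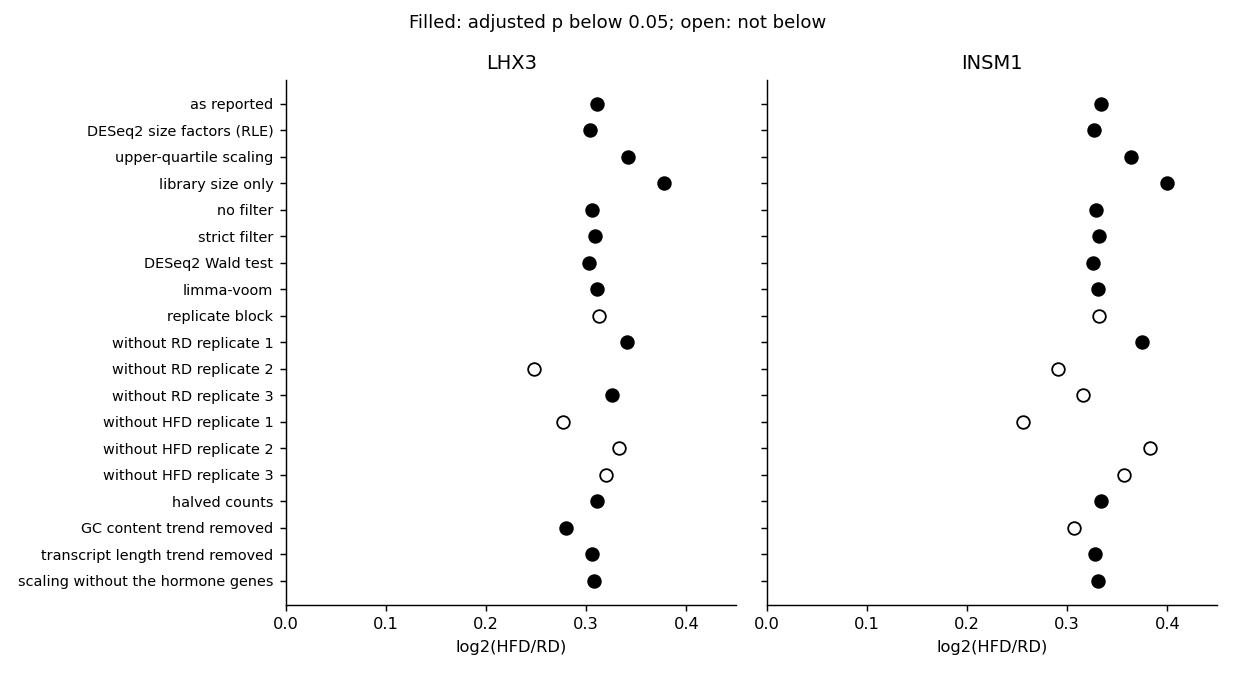
Differences as log2(HFD/RD) of LHX3 and INSM1 as reported and under 18 other settings, filled where the adjusted p was below 0.05 and open where it was not. All values lie between 0.25 and 0.40, and the open points are the replicate block, most fits without 1 library and, for INSM1, the removal of the GC content trend.

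Among 20 further lineage factors with enough counts, 4 were called higher and 1 lower, against 5.87% and 4.61% of all tested genes. The median log2 change was 0.026. The fall was that of POU1F1, which directs somatotrophs, lactotrophs and thyrotrophs, from 490.1 ± 55.8 to 273.3 ± 25.9 CPM (log2 change -0.84 ± 0.10, edgeR adjusted p = 0.00144), and it was called in all 18 other settings. The rises were those of ZBTB20 (0.23 ± 0.05), a zinc finger factor needed for lactotrophs, NR5A1 (0.49 ± 0.11) and GATA2 (0.56 ± 0.15), factors of gonadotrophs and, for GATA2, thyrotrophs, and FOXL2 (0.46 ± 0.13), a regulator of follicle-stimulating hormone. TBX19, the factor of corticotrophs and melanotrophs, did not pass the test, at -0.08 ± 0.10 on the log2 scale. None of the 4 rises was called in all 6 fits with 1 library omitted (adjusted p up to 0.157, for GATA2). FOXL2 was also lost with the GC content trend removed (edgeR adjusted p = 0.0656) and, as was ZBTB20 (0.0583), with the transcript length trend removed (0.0504), which left 3 calls. Of the 5 calls in this list, leaving out RD replicate 2 left 3, RD replicate 3 left 4, HFD replicate 1 left 2, and HFD replicate 2 or 3 left 1.

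Of the 10 LIM-domain cofactors and LIM-only genes, 0 were called by edgeR, DESeq2 or limma-voom, and 2 had an unadjusted p below 0.05, against 26.5% of all tested genes. The log2 change was above 0 for 9 of the 10, against 49.6% of all tested genes, with a median of 0.16. LDB1, the bridging cofactor of LIM-homeodomain proteins, averaged 141.1 ± 4.25 CPM in the RD and 163.7 ± 5.19 CPM in the HFD libraries (0.21 ± 0.06, edgeR adjusted p = 0.0562), and it was called with upper-quartile scaling (0.0389) and with scaling by library size only (0.0239). SSBP4, which binds and stabilises LDB1, had a log2 change of 0.30 ± 0.12 and was called without RD replicate 1 (0.42, edgeR adjusted p = 0.0393). The 4 tested genes of the remaining LIM-homeodomain family (LHX2, LHX6, ISL2 and LMX1B) ranged from 1.03 to 5.19 CPM as group means. Of these 4, 0 were called by any of the 3 tools, against 10.5% of all tested genes called by edgeR, and 0 had an unadjusted p below 0.05.

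Of 18 tested corepressor genes that serve HESX1 and INSM1, RCOR2 alone was called, against 10.5% of all tested genes. RCOR2, a partner of the histone demethylase LSD1, read 9.18, 6.38 and 4.62 CPM in RD against 11.9, 15.9 and 16.7 CPM in HFD (log2 change 1.14 ± 0.24, edgeR adjusted p = 0.0171). The call was lost without HFD replicate 2 (0.0744) or HFD replicate 3 (0.0869). The related RCOR1 had a log2 change of -0.33 ± 0.12 (edgeR adjusted p = 0.111). Of 12 tested neuroendocrine factors and granule genes, 0 were called by the 3 tools, with 3 at an unadjusted p below 0.05, a share near the 26.5% of all tested genes. The granule protein gene SCG2 was at 0.14 ± 0.05 and the vesicle protein gene SYP at -0.20 ± 0.06 on the log2 scale (edgeR adjusted p = 0.101 and 0.0783). With the GC content trend removed both were called (0.0474 and 0.0389), and SCG2 also with scaling by library size only (0.0226).

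Beside SOX2 and SOX9, 1 of 14 tested genes of the SOX family was called, against 10.5% of all tested genes. SOX5 rose from 42.6, 38.2 and 32.6 CPM in RD to 62.1, 63.6 and 63.9 CPM in HFD, a log2 change of 0.74 ± 0.10 (edgeR adjusted p = 0.00304) that was called in all 18 other settings. Of 20 tested progenitor markers other than SOX2 and SOX9, 2 were called higher and 1 lower, against 5.87% and 4.61% of all tested genes. The median log2 change of these markers was 0.048. NES, the intermediate filament nestin, rose from 46.9 ± 12.1 to 85.9 ± 5.07 CPM (0.88 ± 0.16, edgeR adjusted p = 0.00867) and was called in all 18 other settings. Nestin is also known from vessel walls. Of 5 endothelial markers 0 were called by edgeR, DESeq2 or limma-voom, against 10.5% of all tested genes called by edgeR. An unadjusted edgeR p below 0.05 was found for 1 of the 5, against 26.5% of all tested genes. Of the 5, 3 had a log2 change above 0. The summed level of these markers, with KDR the highest, was 235.2 to 255.7 CPM in RD and 242.0 to 272.4 CPM in HFD. CDH5 stood higher in all HFD than in all RD libraries (0.26 ± 0.10, edgeR adjusted p = 0.114, unadjusted p = 0.0214). The part of vessel cells in the NES values was not tested. ALDH1A2, a retinoic acid synthesis enzyme, rose (0.43 ± 0.09) and the keratin gene KRT18 fell (-0.80 ± 0.18), while GFRA2, the GDNF family receptor of pituitary progenitors, was not called (0.19 ± 0.22). ALDH1A2 was called in 1 and KRT18 in 3 of the 6 fits with a library omitted. In place of 3 calls there were 2 when RD replicate 1 or 2 was omitted, and 1 when any of the HFD libraries was.

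Of 19 Notch pathway genes 1 was called, against 10.5% of all tested genes. It was HES6, an inhibitor of HES1, with 23.9, 21.5 and 19.6 CPM in RD against 29.5, 28.8 and 31.4 CPM in HFD (log2 change 0.47 ± 0.11, edgeR adjusted p = 0.0242). That call was lost without RD replicate 2 or any HFD library (adjusted p from 0.0685 to 0.114). Of 18 tested proliferation genes 0 were called by edgeR, DESeq2 or limma-voom, against 10.5% of all tested genes called by edgeR. An unadjusted edgeR p below 0.05 was found for 0 of them, against 26.5% of all tested genes. Their median log2 change was 0.033. Of 23 listed genes 18 passed the filter, and CDK1 and CCNB1 did not. Some that passed had few counts, such as BIRC5 (6 to 20) and UBE2C (8 to 16), and changes in such genes would be hard to detect.

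**Figure D5:**
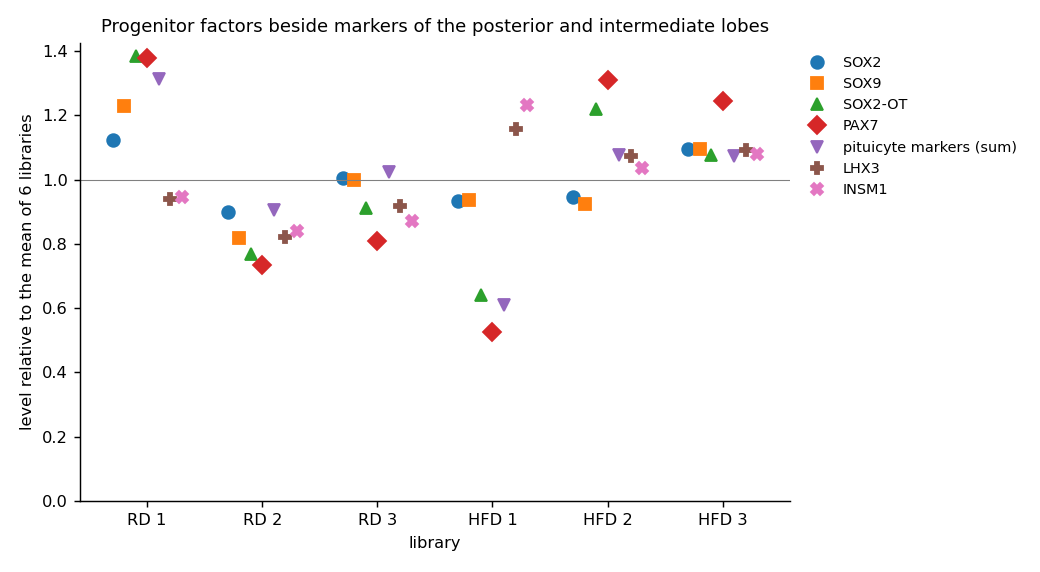
Levels of SOX2, SOX9, LHX3 and INSM1 beside SOX2-OT, PAX7 and the sum of 10 pituicyte markers, each divided by its own mean over the 6 libraries (linear axis from 0). SOX2-OT, PAX7 and the pituicyte sum are highest in RD replicate 1 and lowest in HFD replicate 1, where LHX3 and INSM1 are highest.

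The glands expressed the 7 hormone genes, of which GH1, PRL, LHB and FSHB were called lower and TSHB and CGA higher in HFD. POMC was not called, and over all tested genes 10.5% were called. GH1 and TSHB were called in all 18 other settings, PRL in 17, and FSHB and CGA in 16 each. LHB (edgeR adjusted p = 0.0462) was called in 10 of the 18 and in 0 of the 6 fits with a library omitted. The summed level of the hormone genes, most of it GH1, was 85060 to 95540 CPM in RD and 58320 to 65150 CPM in HFD. Markers of the posterior and intermediate lobes differed between libraries of 1 group. The sum of 10 pituicyte markers was 419.8, 289.1 and 327.4 CPM in RD and 195.0, 343.7 and 343.6 CPM in HFD, and PAX7, the factor of melanotrophs, read 103.1, 55.0 and 60.6 CPM in RD against 39.3, 98.0 and 93.2 CPM in HFD. Both were lowest in HFD replicate 1. Not every pituicyte marker followed the sum. SLC1A2 was lowest in RD replicate 1 (54.9 CPM), and AQP4 and GFAP were not at their lowest in HFD replicate 1 (12.6 and 4.30 CPM). The other markers of the sum were lowest in HFD replicate 1. PCSK2, another melanotroph marker, was also lowest there (187.2 CPM) but highest in HFD replicate 2 (444.7 CPM). SOX2-OT followed the order of the pituicyte sum and PAX7, with 8.08 CPM in RD replicate 1 and 3.75 CPM in HFD replicate 1. SOX2 and SOX9 were highest in RD replicate 1 as well, but in HFD replicate 1 they lay at 0.933 and 0.935 of their means over the 6 libraries, against 0.610 for the pituicyte sum. LHX3 and INSM1 were highest in HFD replicate 1, and without that library their log2 changes were 0.28 and 0.26 in place of 0.31 and 0.33. The part of lobe composition in these values was not tested. In whole glands fewer cells of a type and less RNA per cell cannot be told apart. The hypothalamic markers summed to 6.59 to 11.4 CPM over both groups, with OXT, AGRP and AVP alone passing the filter. The sum of 6 oligodendrocyte markers was 51.8 to 61.3 CPM in 5 libraries and 141.3 CPM in HFD replicate 3. Of the 4 that passed the filter, MAG alone was called, higher in HFD (edgeR adjusted p = 0.0171), against 10.5% of all tested genes. MAG was scarce, with 11, 4 and 6 counts in RD against 20, 28 and 33 in HFD. Its call was lost with a replicate block and when RD replicate 2, HFD replicate 2 or HFD replicate 3 was dropped. MBP (0.64 ± 0.31), SOX10 (-0.06 ± 0.35) and OLIG1 (0.05 ± 0.46) were not called. MBP stood at 135.9 CPM in HFD replicate 3, against 49.2 to 58.1 CPM elsewhere. Of 5 fibroblast markers COL1A2 alone was called, against 10.5% of all tested genes. COL1A2 had means of 284.5 ± 32.7 CPM in RD and 176.4 ± 16.3 CPM in HFD (log2 change -0.69 ± 0.10, edgeR adjusted p = 0.00338). The other fibroblast markers were at 0.16 (COL1A1), -0.04 (COL3A1), -0.02 (LUM) and -0.28 (DCN) on the log2 scale.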

How the data were processed

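Per the labels, RNA was prepared with a column kit and selected with oligo-dT. The authors deposited whole-number read counts per gene symbol, without normalization, and mm10 was the build per the submitters' processing notes. None of the sources used here names the aligner, the counter or the annotation. Totals over the listed rows ranged from 14185372 to 18111345 counts, at which 3 counts are 0.166 to 0.211 CPM. Among counts from 1 to 10, 64.0% to 67.0% were even, so reads of a pair may have been counted singly and counting intervals would be too narrow; none are given. No 2 libraries were identical.

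Counts were tested with edgeR 4.0.16 (R 4.3.3; TMM, minimum count 10, minimum total 15, diet as the only term), two-sided, with Benjamini-Hochberg adjustment. The SE was taken as the size of the change over the root of the F statistic. CPM values use the TMM-scaled totals. Lengths, GC content and positions come from GENCODE M21, in which 96.8% of rows matched a symbol. The 43 symbols on 2 rows were kept out of the lists. Alternatives were other scalings and filters, DESeq2 1.42.0, limma-voom (limma 3.58.1), a replicate block, left-out libraries, halved counts, removal of GC or length trends (loess, span 0.4) and, added after the data were seen, scaling without the hormone genes. The fit was tested on simulated data: it kept the nominal false call rate when variability followed the fitted trend and exceeded it when each gene had its own.

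The members and the 18 further lists were chosen with earlier results of these data known. Named are the members, up to 4 genes per list with the smallest p-values or a stated role, and 3 genes nearest to each called member by the largest centred log2 difference (mean log2 CPM at least 1; prior count 2). SOX2-OT and the ratios of member counts were added after values were seen. Some genes of the lists are not reported here.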

Additional observations from a re-analysis of the deposited data

How the results depend on the processing

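The log2 changes of LHX3 and INSM1 stayed above 0 under all 18 alternatives, from 0.25 to 0.38 for LHX3 and from 0.26 to 0.40 for INSM1. LHX3 was called in 13 of them (adjusted p from 0.0132 to 0.104 over all 18) and INSM1 in 11 (from 0.0224 to 0.141). With a library left out, LHX3 ranged from 0.25 to 0.34 and INSM1 from 0.26 to 0.38, the number of called members from 0 to 2 and that of all called genes from 431 to 1523, against 1453. In these fits fewer samples enter. Scaled by library size only, LDB1, SCG2, HDAC3 and NOTCH3 were also called. With a replicate block LHX3 was at 0.31 (edgeR adjusted p = 0.0597) and INSM1 at 0.33 (0.0607), so 0 members and 808 genes were called. Same-numbered libraries did not deviate together (correlations of -0.127, 0.0037 and -0.097 over 13873 genes). Not every library correlated best with its own number. The labels do not say whether the numbers pair the samples, and correlations over so few libraries cannot decide it. With the GC content trend removed INSM1 was at 0.31 (0.0528) and 1 member was called; the cause was not tested. At a threshold of 0.01, 0 members and 412 genes passed. Scaled by library size only, 72.5% of calls were higher, against 56.0% with TMM, and in no setting did the median of all genes shift by more than 0.068. PITX1, LHX4, ISL1, SOX2 and SOX9 were called in none of the 18 alternatives.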
